A study of Mus musculus with 9 samples.

Results

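The chemokines, the cytokines and their receptors were described in the tail skin of mice with post-surgical lymphedema, with sham surgery and with no surgery. Members were the array features whose annotated symbol begins with Ccl, Ccr, Cxcl, Cxcr or Csf and a number, with Il and a number, or with Tnf, together with Pf4. These symbols name 97 genes on 153 features, out of 10554 genes named on the array and 42624 features in all. A further 11 features name a member together with another gene and were kept apart. The 97 genes comprised 48 ligands, 41 receptors and 8 others, such as soluble inhibitors and TNF-induced proteins. A value on all 9 arrays was available for 65 members, namely 32 ligands, 28 receptors and 5 others. Another 20 members could be compared on at least 2 of 3 arrays per state, and the other 12 members had fewer values, 4 of them enough to compare lymphedema with normal skin alone.

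Distal tail skin, separated from cartilage, came from female SKH-1 mice, a hairless and immunocompetent stock, which were 3 wk old at the start and were sampled on day 14. Normal mice had no surgery. Surgical sham mice received the skin incision and the methylene blue injection but no cautery, and lymphedema mice received the incision, the dye and cautery of the lymphatic trunks. Each state was represented by 9 mice in 3 pools of 3, and 1 array was made per pool, with late-gestation whole-embryo RNA as the common reference, so n = 3 in every comparison and the pools hide differences between single mice. In RNA of whole skin, fewer cells of a type and less RNA per cell cannot be told apart.

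Chemokines are small secreted proteins that guide leukocytes along their gradients through G protein-coupled receptors, and they fall into CC and CXC families by the spacing of conserved cysteines. Interleukins, tumor necrosis factors and colony-stimulating factors act through receptor chains that mostly signal by JAK and STAT proteins, by MyD88 or by TRAF adaptors. In skin they are made by keratinocytes, fibroblasts, endothelium and resident or recruited leukocytes, and they draw neutrophils, monocytes and lymphocytes into injured tissue.

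All values below are log2 ratios of tail skin over the embryo reference, centered on the median of each array, so a positive value means more RNA in tail skin than in the embryo. The log base of the deposited values is not stated and was read as 2, and another base would rescale every difference. Labels and methods differ on the dyes, with tail skin in Cy5 by the former and in Cy3 by the latter. The direction was taken from 25 genes typical of embryos, with deposited medians of 2.81 to 3.89 on the 9 arrays, and 12 genes typical of adult skin, with medians of −2.11 to −1.33. The sign of the deposited ratio was therefore turned. A gene passed at an adjusted p under 0.05 from limma, with Benjamini-Hochberg adjustment over all 8644 genes measured on 9 arrays. Over all these genes the median difference between lymphedema and normal skin was 0.10, and it was −0.02 after quantile normalization, so differences are to be read against that shift.

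Sham array 3 stood apart. It was the highest of the 9 arrays for 22 of the 65 members (33.8%, against 14.4% of all genes), and it exceeded the mean of the other sham arrays by a median of 0.345 over the members and −0.015 over all genes. Markers of neutrophils, 7 of 11 listed, averaged −1.24 to −1.13 on the normal arrays and 0.54 to 0.90 on the lymphedema arrays, and −0.95, −0.65 and 0.46 on sham arrays 1, 2 and 3. Markers of macrophages and monocytes, 10 of 15 listed, averaged −0.82 to −0.72 in normal and 0.20 to 0.40 in lymphedema skin, and −0.52, −0.78 and 0.36 on the 3 sham arrays. In lymphedema against normal skin, 4 neutrophil markers (S100a8, S100a9, Lcn2 and Camp) and 4 macrophage markers (Lyz2, Fcer1g, Aif1 and Fcgr1) passed. The 4 of 8 blood endothelium markers measured averaged −0.82 to −0.58 in normal and 0.08 to 0.28 in lymphedema skin and −0.21, −0.54 and 0.09 on the sham arrays, and Kdr and Eng passed. The 3 of 9 dendritic and Langerhans cell markers measured averaged 2.02 to 2.38, 2.92 to 3.39 and 2.56 to 3.17 in normal, lymphedema and sham skin, and H2-Aa passed, by 2.03. The 7 of 9 fibroblast markers measured averaged −1.20 to −1.13 in normal and −0.56 to −0.43 in lymphedema skin and −0.87, −0.96 and −0.03 on the sham arrays, and Fbln1 passed. Of 5 mast cell markers 4 were positive, with a median of 0.58, and none passed. The 7 of 10 skeletal muscle markers measured were all higher in sham than normal skin, by a median of 0.97 with none past the threshold, and averaged −4.49, −3.86 and −2.71 on sham arrays 1, 2 and 3. No lymphatic endothelium marker had a value on all 9 arrays, and the 2 B cell and plasma cell markers measured differed by −0.26 and 0.01. The part of these cell types in the results below was not tested. The neutrophil markers Ly6g, Mpo, Elane and Mmp8 and all T cell markers but Cd8a had no feature on all 9 arrays. The mean of the 7 keratinocyte markers measured lay between 1.43 and 1.94 on the 9 arrays. A pattern of missing values also set the 3 normal arrays and lymphedema array 1 apart from the other 5 arrays, since 186 features had values on exactly those 4 arrays and no other division of 4 against 5 reached more than 45.

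Lymphedema skin had higher RNA levels of several chemokines, chemokine receptors and an interleukin receptor chain than normal skin. The ligands Ccl6, Ccl19 and Cxcl16 and the receptors Ccr2, Ccr4 and Il10rb passed the test, and so did Ccl2, Ccl12 and Cxcl5 among the genes with missing values. These are 6 of the 65 members measured on 9 arrays (9.23%), where 2.83% of all genes passed as higher. No member passed as lower, where 0.602% of all genes did. At an unadjusted p under 0.05, limma gave 15 members as higher (23.1%, against 14.8% of all genes) and 10 as lower (15.4%, against 5.71%), and SAM on the 2 states gave 18 (27.7%, against 18.8%) and 5 (7.69%, against 2.42%). On all 3 lymphedema arrays, 17 members lay above all 3 normal arrays (26.2%, background 23.6%) and 11 lay below them (16.9%, background 10.2%). The share of members that lay wholly above was thus close to the background.

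Medians differed between the roles, which was not tested. Over the 17 of 23 chemokine ligands measured on all 9 arrays the median difference between lymphedema and normal skin was 0.59, with 15 positive. Over the 11 of 20 interleukin ligands it was −0.29, with 8 negative. Interleukin ligands without a complete clone did not enter that median. In a fit of lymphedema and normal skin alone, described below, Il1b, Il1f6, Il16 and Il6 differed by 2.87, 1.63, 0.61 and 0.24. Il17b and Il31 differed there by −0.18 and −0.56. Over all 32 ligands the median was 0.15 and over the 28 receptors 0.19. The chemokine ligands stayed between 0.53 and 0.69 and the interleukin ligands between −0.355 and −0.287 under the 4 ways of scaling the arrays. The number of positive chemokine ligands ran from 12 to 15 of 17 under them.

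**Figure D1:**
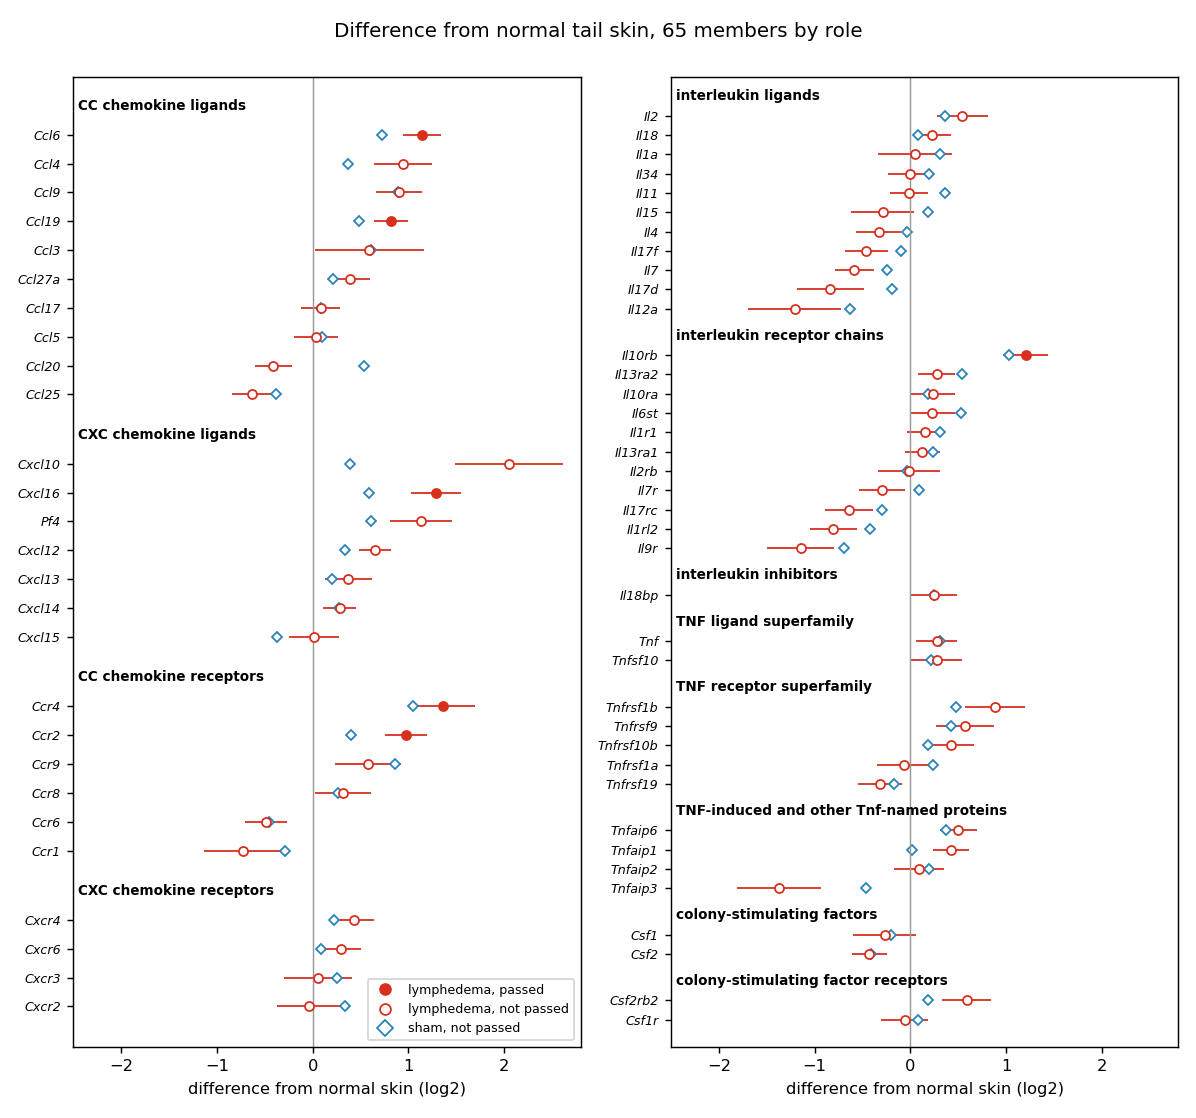
Difference from normal skin on the log2 scale (x axis) for the 65 members measured on all 9 arrays (y axis), grouped by role. Red circles are lymphedema minus normal with bars of 1 standard error, filled for the 6 members that passed, and blue diamonds are sham minus normal, of which none passed.

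Among CC chemokine ligands 2 of 10 passed, and the median difference between lymphedema and normal skin was 0.49. Of all genes 2.83% passed as higher. The counts for this role and the roles below are small and were not tested against that share. Ccl6, a macrophage- and neutrophil-derived CC chemokine of rodents, had the smallest adjusted p among the members. Its mean over 5 clones was 0.15, 0.23 and 0.74 on the normal arrays, 1.70, 1.45 and 1.38 on the lymphedema arrays and 1.12, 0.95 and 1.23 on the sham arrays. Both operated states lay above normal skin without overlap, and lymphedema lay above sham. Lymphedema exceeded normal skin by 1.14 (standard error 0.199, 2.2-fold, adjusted p = 0.0217 from limma), and each of the 5 clones was higher, by 0.77 to 1.53.

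Ccl19, the ligand of Ccr7 that draws dendritic cells and naive T cells to lymphoid tissue, was below the embryo reference in every state. It read −1.62, −1.72 and −1.65 in normal, −0.59, −1.02 and −0.91 in lymphedema and −1.21, −0.98 and −1.34 in sham skin. The normal arrays were tight and lowest, while sham array 2 lay within the lymphedema range. The difference from normal was 0.82 (standard error 0.178, adjusted p = 0.0367 from limma).

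Ccl9 and Ccl4 did not pass. Ccl9, which lies next to Ccl6 in the genome and encodes a ligand of Ccr1, read 0.01, −0.34 and 0.49 in normal, 1.13, 1.19 and 0.55 in lymphedema and 1.00, 0.80 and 1.02 in sham skin. Lymphedema and sham skin overlapped, at 0.91 and 0.89 above normal (adjusted p = 0.068 and 0.343 from limma). Ccl4, the inflammatory chemokine MIP-1 beta, read 1.27, 1.44 and 1.38 in normal, 1.94, 2.83 and 2.16 in lymphedema and 1.12, 1.72 and 2.35 in sham skin, a difference from normal of 0.95 (adjusted p = 0.109). Ccl3, its close relative MIP-1 alpha, read 0.58 to 0.96 in normal and 1.15 to 1.46 in lymphedema skin, but 0.12, 0.81 and 3.12 on the sham arrays. The highest value of Ccl3 was therefore on sham array 3, and neither comparison with normal skin passed (0.59 and 0.61).

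At the other end, Ccl25, a ligand of Ccr9 best known from thymus and gut, read 0.93, 0.83 and 0.63 in normal and 0.09, 0.35 and 0.06 in lymphedema skin, with sham values of 0.10, 0.34 and 0.81. All 3 lymphedema arrays lay below normal, and the difference of −0.63 did not pass (adjusted p = 0.115 from limma). Ccl5 and Ccl17, which recruit T cells, differed by 0.04 and 0.08, and the clones of each gene were of both signs.

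Among CXC chemokine ligands 1 of 7 passed, all 7 differences were positive, that of Cxcl15 by only 0.01, and the median was 0.65. With no centering, scaling or quantile normalization 6 of 7 were positive. Of all genes, 5355 of 8644 were positive. Cxcl16, a transmembrane chemokine that also acts as a scavenger receptor of macrophages, read 1.61, 1.48 and 2.07 in normal, 3.19, 2.88 and 2.95 in lymphedema and 2.00, 2.03 and 2.89 in sham skin. Sham arrays 1 and 2 lay within the normal range and sham array 3 within the lymphedema range. The difference from normal was 1.29 (standard error 0.257, 2.44-fold, adjusted p = 0.0275 from limma), with both clones higher, by 0.99 and 1.58.

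Cxcl10, an interferon-induced ligand of Cxcr3, had the largest difference among the 65 members but also the widest spread in lymphedema skin. It read −0.39, −0.56 and −0.12 in normal, 1.49, 0.33 and 3.28 in lymphedema and −0.42, −0.10 and 0.63 in sham skin. Lymphedema arrays 1 and 3 were far above all normal and sham arrays, and array 2 lay below sham array 3. The difference of 2.06 (standard error 0.565, 4.16-fold) did not pass (adjusted p = 0.0755). A second clone of Cxcl10, with 7 values, read 0.49 on normal array 3, 0.56, 0.26 and 2.53 in lymphedema and 0.68, 0.53 and 1.21 in sham skin, so high values on the third lymphedema array were shared by both clones.

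The paper discusses Pf4 and Cxcl12 among the genes it found upregulated in lymphedema with SAM. Neither passed in the fit on all 9 arrays, whose spread includes the sham arrays. Both were called higher here by SAM. Limma on the 2 compared states alone also called both (adjusted p = 0.00609 for Pf4 and 0.026 for Cxcl12). Pf4, platelet factor 4, is a CXC chemokine of platelet granules and of macrophages. It read −1.66, −1.36 and −1.33 in normal, −0.48, −0.14 and −0.34 in lymphedema and −1.23, −1.37 and 0.08 in sham skin. Lymphedema lay above normal without overlap, and sham array 3 was the highest of all. The difference of 1.13 did not pass (standard error 0.322, adjusted p = 0.0814 from limma). Of 8 platelet markers only Ppbp had a value on all 9 arrays. It read 0.04, −3.13 and −3.44 in normal and −1.84, −2.14 and −1.76 in lymphedema skin. The difference of 0.26 had a standard error of 0.741 (adjusted p = 0.882 from limma). With normal array 1 far above the other normal arrays, this difference cannot show whether platelet RNA changed. Cxcl12, the stromal ligand of Cxcr4, read 0.10, −0.13 and 0.07 in normal, 0.60, 0.67 and 0.71 in lymphedema and 0.24, 0.25 and 0.56 in sham skin. Normal skin was lowest, sham skin between and lymphedema highest, without overlap between lymphedema and the other arrays, and the difference from normal of 0.65 did not pass (standard error 0.167, adjusted p = 0.06). Its 3 clones differed in size, at 0.03, 0.68 and 1.23.

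**Figure D2:**
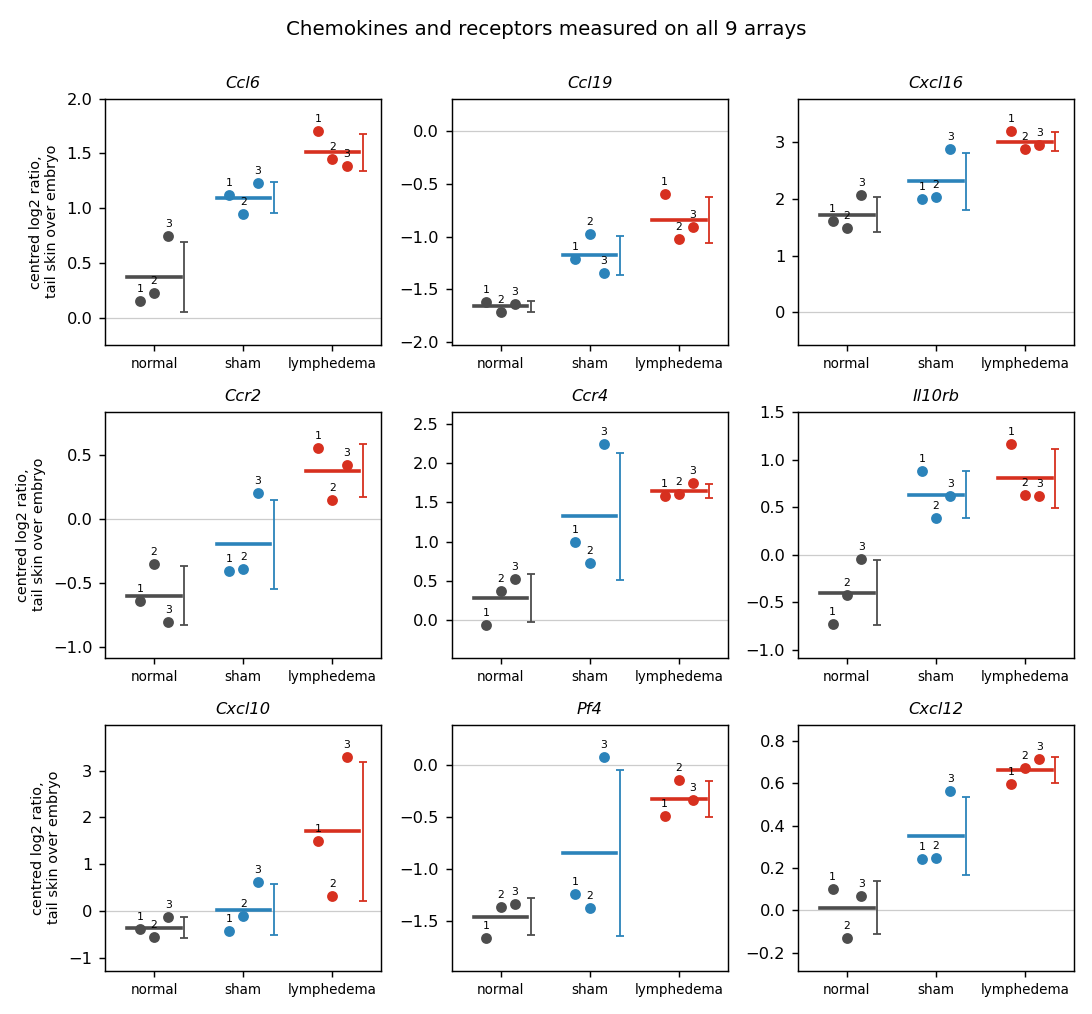
Centered log2 ratio of tail skin over embryo (y axes, own scale per gene) on each array for 9 members, with numbers for the arrays, lines for group means and bars for 1 SD (n = 3). Lymphedema arrays lie above all normal arrays in every panel. Sham array 3 lies within the lymphedema range or above it for Cxcl16, Ccr2, Ccr4, Cxcl10 and Pf4, and just below it for Il10rb and Cxcl12.

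Several inflammatory chemokines lacked values on some arrays and were compared where each state had at least 2. In that fit 8 of 85 members passed as higher (9.41%), where 1.9% of 10036 genes did, and 3 of the 8 were members without a complete clone. Ccl2, or MCP-1, is the main attractant of Ccr2-bearing monocytes. Its first clone read 0.56, 0.72 and 0.67 in normal skin, 2.86 and 2.59 on lymphedema arrays 1 and 3, and 1.03 and 2.34 on sham arrays 1 and 3. The second clone read 1.44 and 1.40 on normal arrays 2 and 3, 2.71, 2.51 and 2.30 in lymphedema and 1.82, 1.58 and 2.54 in sham skin. Both clones placed lymphedema above normal and sham array 3 near lymphedema, and together they differed by 1.58 (standard error 0.271, 2.99-fold, adjusted p = 0.0263 from limma).

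Ccl12, or MCP-5, is another ligand of Ccr2. Its first clone read −0.06 and 0.34 on normal arrays 2 and 3, 2.22, 1.52 and 1.14 in lymphedema and 0.73, 0.64 and 1.46 in sham skin. The second clone was less separated, with 0.34, 1.04 and 1.06 in normal skin and 1.57 and 1.53 on lymphedema arrays 1 and 3. Together they differed by 1.16 (standard error 0.212, 2.24-fold, adjusted p = 0.0315 from limma). Ccl7, or MCP-3, a ligand of several CC receptors, had a single sham value. It read 0.77, 0.63 and 0.49 in normal skin, 1.96, 1.82 and 1.51 in lymphedema skin and 2.67 on sham array 3. All lymphedema arrays lay above normal, and in a fit of these 2 states alone the difference was 1.14 (standard error 0.167, 2.2-fold, adjusted p = 0.00889 from limma). That fit, added after the data were seen, took in features with at least 2 of 3 values in both states, where 4.83% of 10194 genes passed as higher. Ccl2, Ccl7 and Ccl12 lie in 1 cluster on mouse chromosome 11 and are similar in sequence, and how far a cDNA clone of one takes up RNA of another was not tested.

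Cxcl5, a neutrophil attractant acting on Cxcr2, had the largest difference of any member compared. It read −0.25 and 0.16 on normal arrays 2 and 3, 3.87, 3.96 and 3.67 in lymphedema skin, and 1.42 and 4.75 on sham arrays 2 and 3. The lymphedema arrays were close to each other while the sham arrays were far apart, and the difference was 3.87 (standard error 0.739, 14.7-fold, adjusted p = 0.0353 from limma). Cxcl1, or KC, which acts on the same receptor, overlapped between sham and lymphedema skin. It read 1.16 and 0.49 on normal arrays 2 and 3, 1.95, 3.41 and 2.84 in lymphedema and 2.62, 2.14 and 3.72 in sham skin. Neither difference from normal passed, at 1.91 for lymphedema and 2.00 for sham (adjusted p = 0.0741 and 0.297 from limma). In the fit of lymphedema and normal skin alone, Cxcl1 passed (adjusted p = 0.0345).

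Il1b encodes interleukin 1 beta, the secreted cytokine of activated macrophages. It read 0.40 and 0.34 on normal arrays 2 and 3, 2.63, 3.20 and 3.88 in lymphedema skin and 4.70 on sham array 3. Every operated array with a value was above both normal values. In the fit of lymphedema and normal skin alone the difference was 2.87 (standard error 0.327, 7.31-fold, adjusted p = 0.00536 from limma). Ccl7 and Il1b passed there whichever of the 6 arrays was left out (adjusted p up to 0.0455 and 0.0335), although the normal side of Il1b is then a single array in the absence of array 2 or 3. Il1f6, now named interleukin 36 alpha, is made by keratinocytes. It read 1.21, 0.28 and 1.40 in normal skin, 2.73 and 2.46 on lymphedema arrays 1 and 3 and 2.65, 1.59 and 2.82 in sham skin. The difference of 1.63 did not pass in the fit that includes the sham arrays (adjusted p = 0.067 from limma). It passed in the fit of lymphedema and normal skin alone (adjusted p = 0.0289). Il16, a T cell attractant that binds CD4, differed by 1.92 on the 1 clone compared (adjusted p = 0.0689). Another clone of Il16 was lower in lymphedema skin, at 0.77 and 0.40 against 1.37, 1.65 and 0.83 in normal skin.

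**Figure D3:**
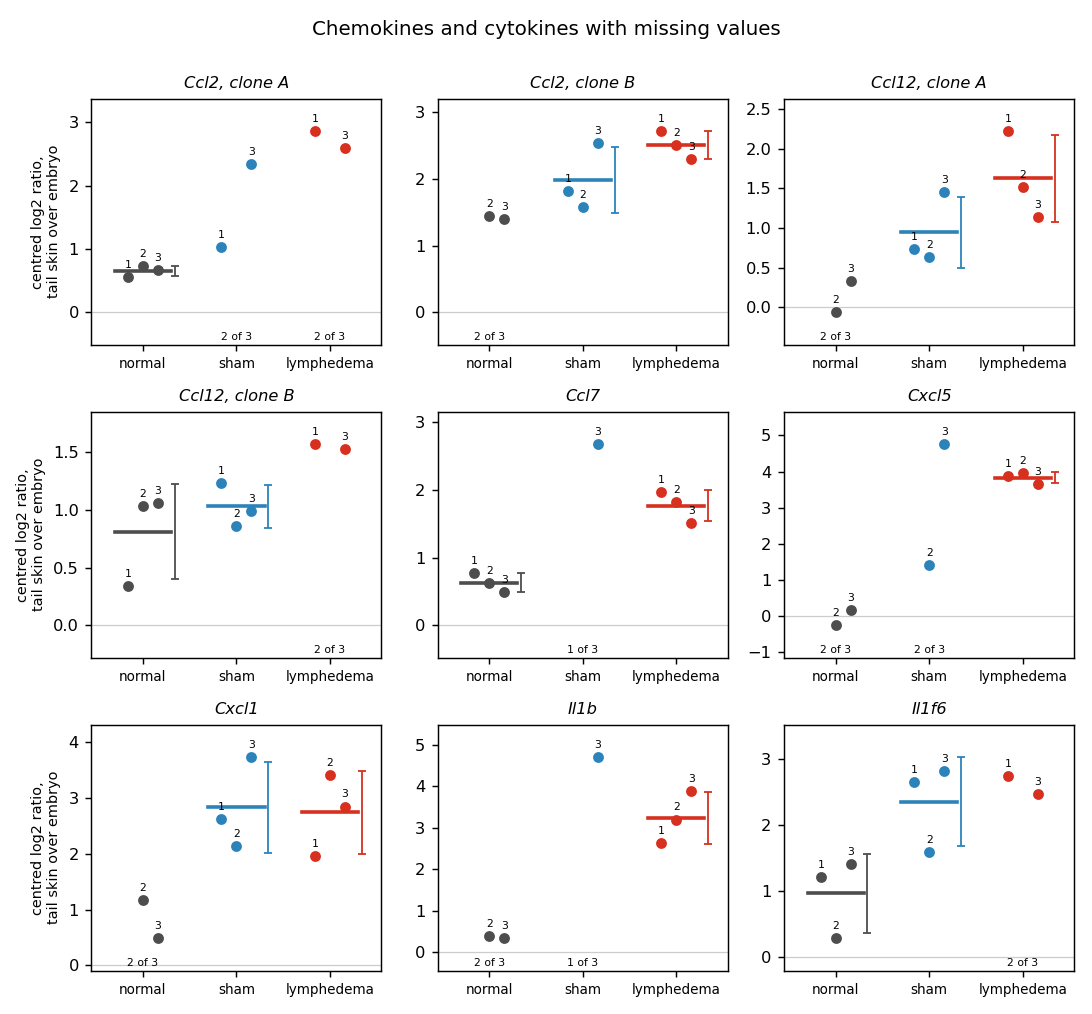
Centered log2 ratio of tail skin over embryo (y axes, own scale per panel) for chemokine and cytokine clones that lack values on some arrays, with numbers for the arrays, lines and bars for mean and 1 SD where a state has 3 values, and the count of values where it has fewer. In all 9 panels the lymphedema values lie above the normal values, and sham array 3 is the highest of all arrays for Ccl7, Cxcl5, Cxcl1, Il1b and Il1f6.

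Promoter sequences from RefSeq (GRCm38.p6) were at hand for 76 of the 97 members. Those of 3 chemokines with large differences are printed to show which sequence lies upstream of them, as the 250 bases before the transcription start on the strand of the gene, with matches in capitals. The searches, on both strands, were for the 10-base consensus of NF-kappaB, a factor that drives many inflammatory genes, and for TATAAA, the core of the TATA box. Cxcl1 (chr5:90890995-90891244, plus strand) holds 2 overlapping NF-kappaB matches, which start 71 and 70 bases before the transcription start. Cxcl10 (chr5:92348890-92349139, minus strand) holds 3, which start at 159, 104 and 103 bases before it, and the last pair overlaps. Ccl12 (chr11:82101595-82101844, plus strand) holds TATAAA at 31 bases before the start.
Cxcl1: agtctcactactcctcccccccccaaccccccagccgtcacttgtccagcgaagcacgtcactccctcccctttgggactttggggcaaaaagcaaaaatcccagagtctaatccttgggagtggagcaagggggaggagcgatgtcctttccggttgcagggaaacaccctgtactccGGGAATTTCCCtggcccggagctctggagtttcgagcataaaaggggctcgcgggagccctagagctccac
Cxcl10: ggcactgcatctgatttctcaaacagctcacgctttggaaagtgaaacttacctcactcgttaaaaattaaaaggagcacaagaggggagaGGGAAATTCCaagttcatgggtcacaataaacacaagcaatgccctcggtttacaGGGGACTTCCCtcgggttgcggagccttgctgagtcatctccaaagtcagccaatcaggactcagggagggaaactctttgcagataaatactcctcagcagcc
Ccl12: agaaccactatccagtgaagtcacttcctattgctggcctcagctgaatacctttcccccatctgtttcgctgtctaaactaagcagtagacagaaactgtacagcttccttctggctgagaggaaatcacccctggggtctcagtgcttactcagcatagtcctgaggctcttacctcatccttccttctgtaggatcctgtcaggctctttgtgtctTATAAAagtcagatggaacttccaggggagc
Within the full windows, which run 50 bases past the start, the NF-kappaB consensus was found in 16 of 76 members (21.1%) and in 8.46% of all 32851 promoters, and TATAAA in 17 of 76 (22.4%) and 13.6%. Among the members that passed, Ccl6, Ccl12, Ccl19, Ccr2 and Ccr4 have a promoter in the table, and none of these holds the NF-kappaB consensus in this window. A match is a stretch of letters and no evidence of binding.

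Receptors were compared apart from their ligands, and 3 of 28 passed, where 2.83% of all genes passed as higher. Ccr2, the receptor of inflammatory monocytes, read −0.65, −0.35 and −0.81 in normal, 0.56, 0.15 and 0.42 in lymphedema and −0.41, −0.39 and 0.20 in sham skin. Lymphedema lay above normal without overlap. Sham arrays 1 and 2 lay within the normal range and sham array 3 within the lymphedema range. The difference was 0.98 (standard error 0.217, 1.97-fold, adjusted p = 0.037 from limma). The 2 clones averaged here were unequal, at 0.30 and 1.66. Another 2 clones with 8 values each, left out of that mean, read −0.34 to 0.14 in normal and 0.24 to 1.10 in lymphedema skin for one, and −1.59 to −1.31 and −0.60 to −0.32 for the other.

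Ccr4, a receptor of skin-homing and type 2 helper T cells, read −0.07, 0.38 and 0.52 in normal, 1.58, 1.61 and 1.74 in lymphedema and 0.99, 0.73 and 2.24 in sham skin. Both operated states lay above normal, and sham array 3 was the highest. Lymphedema differed by 1.36 (standard error 0.332, 2.57-fold, adjusted p = 0.0486 from limma) and sham by 1.04 (adjusted p = 0.432). The T cell marker Cd8a differed by 0.12 between lymphedema and normal skin (adjusted p = 0.778), and the other 12 T cell markers listed could not be compared on 9 arrays.

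Il10rb is the shared second chain of the receptors for interleukins 10 and 22 and for type III interferons. It read −0.73, −0.42 and −0.04 in normal, 1.16, 0.63 and 0.62 in lymphedema and 0.88, 0.39 and 0.62 in sham skin. Sham and lymphedema skin overlapped, with sham array 2 the lowest of the operated arrays, and both states lay above normal. Lymphedema exceeded normal by 1.20 (standard error 0.232, 2.3-fold, adjusted p = 0.0275 from limma), with both clones higher, by 1.14 and 1.27. Sham exceeded normal by 1.03 (adjusted p = 0.224), the smallest adjusted p of any member in that comparison. Il10ra, the chain specific to interleukin 10, differed by 0.24 in lymphedema skin (adjusted p = 0.595).

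The remaining receptors did not pass. Tnfrsf1b, TNF receptor 2, read −0.12, −0.27 and −0.31 in normal and 0.14, 0.65 and 1.16 in lymphedema skin (difference 0.88, adjusted p = 0.141), and Tnfrsf1a, the broadly expressed TNF receptor 1, differed by −0.07. Il9r, the receptor of interleukin 9, read 0.83, 0.30 and 0.99 in normal, −0.19, −0.92 and −0.21 in lymphedema and −0.83, 0.40 and 0.47 in sham skin, a difference of −1.15 that did not pass (adjusted p = 0.0934). Il1rl2, the receptor of the interleukin 36 cytokines, read 0.13, 0.15 and 0.09 in normal, −0.57, −0.93 and −0.54 in lymphedema and −0.78, −0.40 and 0.29 in sham skin. Its lymphedema arrays all lay below normal while Il1f6, one of its ligands, lay above, and its difference of −0.80 did not pass (adjusted p = 0.1). Ccr1, Cxcr4, Cxcr6 and Csf2rb2 differed by −0.73, 0.43, 0.29 and 0.59 (adjusted p = 0.348, 0.274, 0.476 and 0.221 from limma).

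Differences between lymphedema and normal skin were set side by side for ligands and their receptors. For the monocyte axis, Ccl2, Ccl12 and Ccr2 all passed as higher. Cxcl16 passed, and its receptor Cxcr6 differed by 0.29. Cxcl10 differed by 2.06 and its receptor Cxcr3 by 0.06, and the sign of the latter turned under no centering, scaling and quantile normalization (−0.005, −0.071 and −0.23). Cxcl5 passed, and Cxcr2, the receptor it shares with Cxcl1, differed by −0.04, with 1.58 to 1.81 in normal, 1.05 to 2.25 in lymphedema and 1.40 to 2.70 in sham skin. Ccr4 passed, and Ccl17, one of its ligands, differed by 0.08. Csf1r, the receptor of macrophage colony-stimulating factor, differed by −0.06, and its ligands Csf1 and Il34 by −0.27 and −0.001.

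Interleukin ligands, TNF ligands and colony-stimulating factors held no member that passed among 15 measured on 9 arrays. Of all genes 2.83% passed as higher and 0.602% as lower, so 15 genes are too few to set these roles apart. Il12a, the p35 subunit of interleukin 12, read 0.64, 0.26 and 0.69 in normal, −0.78, −1.03 and −0.23 in lymphedema and −1.12, −0.51 and 1.32 in sham skin. Lymphedema lay below normal without overlap and the sham arrays spanned both, and the difference of −1.21 did not pass (standard error 0.486, adjusted p = 0.19 from limma). Il17d, an interleukin 17 family cytokine, and Il7, a survival factor of lymphocytes made by keratinocytes, differed by −0.84 and −0.59 (adjusted p = 0.202 and 0.137), both with every lymphedema array below every normal array. Il17rc, a receptor chain for interleukin 17, differed by −0.64 (adjusted p = 0.171). Csf2, or GM-CSF, read 2.30, 2.05 and 1.74 in normal, 1.54 to 1.63 in lymphedema and 1.47 to 1.76 in sham skin, a difference of −0.43 (adjusted p = 0.213). Tnf differed by 0.27 and Tnfsf10, or TRAIL, by 0.27 (adjusted p = 0.511 and 0.602).

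Tnfaip3 encodes A20, an enzyme that restrains NF-kappaB signalling after TNF. It read 0.93, 1.65 and 1.17 in normal, 0.72, −0.91 and −0.18 in lymphedema and 0.35, 0.29 and 1.73 in sham skin. All lymphedema arrays lay below normal, arrays 2 and 3 most of all, and the difference of −1.38 did not pass (standard error 0.44, adjusted p = 0.109 from limma). The other TNF-induced proteins Tnfaip6, which binds hyaluronan, and Tnfaip1 differed by 0.50 and 0.42 (adjusted p = 0.176 and 0.23), and the clones of Tnfaip6 were of both signs. The inhibitor of interleukin 18, Il18bp, differed by 0.24 (adjusted p = 0.603).

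**Figure D4:**
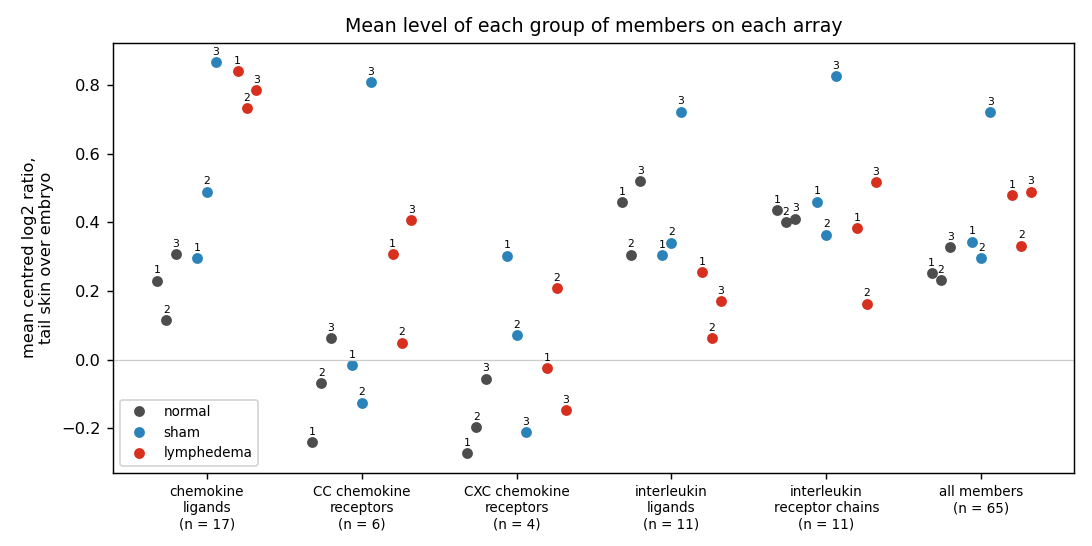
Mean centered log2 ratio (y axis) of 6 groups of members (x axis, n is the number of genes) on each of the 9 arrays, with numbers for the arrays. Chemokine ligands average 0.73 to 0.84 on the lymphedema arrays and 0.12 to 0.31 on the normal arrays, and sham array 3 is the highest sham array in every group but the CXC receptors.

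Sham against normal skin compares incision and dye, without cautery, with no surgery. The normal and sham arrays lie on opposite sides of the division by missing values. An effect of surgery and that division therefore cannot be told apart in this comparison. No member passed by limma or SAM, and no gene on the array did by limma (0%). At an unadjusted p under 0.05, limma gave 10 members as higher (15.4%, against 5.54% of all genes), among them Ccl6, Ccl9, Ccl19, Cxcl16, Ccr4, Ccr9 and Il10rb, and 1 as lower (1.54%, against 2.38%), which was Csf2. The comparison shares its normal arrays with that of lymphedema. The median difference from normal was 0.22 over the ligands and 0.23 over the receptors, where it was 0.06 over all genes.

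Lymphedema was compared with sham skin directly, which asks what cautery of the lymphatics adds. No member passed in either direction by limma or SAM, and 0.0116% of all genes passed as higher and 0.0116% as lower. At an unadjusted p under 0.05, 3 members were higher in lymphedema (4.62%, against 4.59% of all genes), namely Cxcl10, Cxcl16 and Ccr2, with differences of 1.67, 0.70 and 0.57. Ccl20, the attractant of Ccr6-bearing dendritic cells and lymphocytes, was the 1 member that was lower (1.54%, against 2.85%). It read 0.45, −0.01 and 0.28 in lymphedema, 0.97, 1.26 and 1.31 in sham and 0.88, 0.41 and 0.65 in normal skin. The lymphedema and sham arrays did not overlap, and the difference of −0.94 did not pass (adjusted p = 0.276 from limma). Ccr6 read −0.96 to −0.55 in lymphedema, −0.98 to −0.47 in sham and −0.65 to −0.03 in normal skin. Without sham array 3, Pf4 passed as higher in lymphedema than in sham skin, by 0.98 (adjusted p = 0.0377 from limma). Pf4 was highest on that array, at 0.08 against −1.23 and −1.37 on the other sham arrays, so leaving it out favours the call. No other member was called in this comparison under any alternative. The share of all genes called without sham array 3 is not given here.

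Genes of the same pathways outside the rule were read from lists. Of 8 G proteins, arrestins and other signalling proteins of chemokine receptors, Rgs2 and Rac2 passed as higher in lymphedema than normal skin, by 0.99 and 1.51 (adjusted p = 0.0288 and 0.0313 from limma). Rac2 is a GTPase of leukocyte movement and Rgs2 a brake on G protein signals. Of 7 genes of interleukin 1 receptor signalling, the adaptor Myd88 passed, by 1.01 (adjusted p = 0.0288). Sham skin exceeded normal skin by 0.82 for Myd88, which did not pass (adjusted p = 0.297 from limma). The paper also assayed Myd88 by qRT-PCR, and its figure shows this gene as unchanged by microarray. The cause of that disagreement was not tested. Of 10 interferon and interleukin 6 family genes, Ifngr1, a chain of the interferon gamma receptor, passed as higher by 1.50 (adjusted p = 0.0137), and Ifng, its ligand, passed as lower, at −0.91 (adjusted p = 0.0445). None of 12 JAK and STAT genes, 17 other TNF family genes or 10 atypical chemokine receptors and other chemokines passed, and the medians of these 3 lists were 0.25, 0.04 and 0.42, where that of all genes was 0.10. The scavenging receptor Ackr1 differed by 0.61 (adjusted p = 0.0838).

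Clones of the same gene differed. Of the 22 members with at least 2 clones on all 9 arrays, 11 had clones of 1 sign and 11 of both signs in lymphedema against normal skin. All such clones of Ccl6, Cxcl16 and Il10rb were higher by at least 0.77, and of the 3 clones of Ccl6 with missing values the least difference was 0.61. Ccr4 and Ccl19 rest on 1 clone each.

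**Figure D5:**
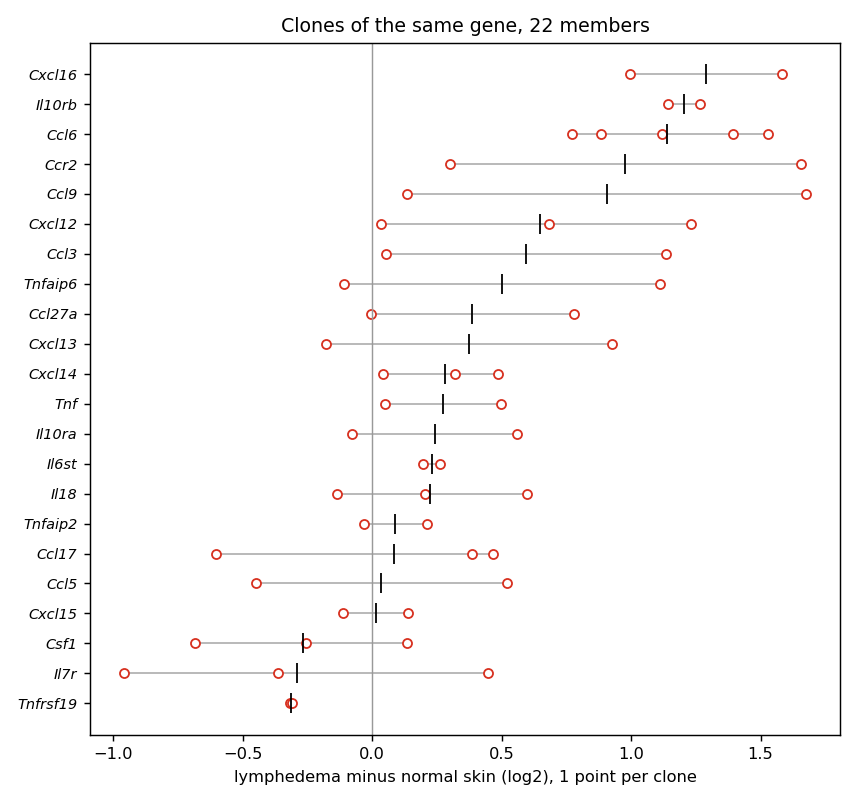
Lymphedema minus normal skin on the log2 scale (x axis) for each clone measured on all 9 arrays (circles), for the 22 members with 2 or more such clones (y axis), with a black tick at the mean. Clones of Cxcl16, Il10rb and Ccl6 are all well above 0, while those of Ccl17, Ccl5 and Il7r lie on both sides.

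Values were missing in 57 of the 153 features (37.3%, against 28% of all features), and normal array 1 lacked the most, at 26 features. Of the 20 members compared on incomplete values, 15 had a positive difference between lymphedema and normal skin, with a range from −0.94 for Il20rb to 3.87 for Cxcl5. Besides Ccl2, Ccl12 and Cxcl5 none passed in the fit that includes the sham arrays. Those that did not include Il6, the acute-phase cytokine, at 0.24, and Csf3r, the receptor of the neutrophil growth factor, at 0.93 (adjusted p = 0.215). In the fit of lymphedema and normal skin alone, Csf3r passed (adjusted p = 0.0127 from limma). Of the 12 members with fewer values, Il10 read 1.13 and 1.62 on normal arrays 2 and 3 and 0.50 on lymphedema array 3. Il1r2, the decoy receptor of interleukin 1, read 0.90, 1.52 and 2.06 in normal skin, 1.05 on lymphedema array 1 and 1.35 on sham array 3. Ccr3, a receptor of eosinophils, read −0.10 to 0.31 in normal and −0.41 to −0.01 in lymphedema skin, and in the fit of these 2 states alone it differed by −0.30 and Il31, an itch cytokine, by −0.56 (adjusted p = 0.291 and 0.216 from limma). Tnfrsf12a, the receptor of TWEAK, read 0.41 on normal array 3, 2.18 and 0.84 on lymphedema arrays 2 and 3 and 0.11, 0.01 and 1.36 in sham skin. Il5, Il12b, Il17rd, Il31, Tnfrsf13b and Tnfsf13os had 2 to 6 values each.

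The number of calls rested on few arrays. The share of all genes called with an array left out is not given here, so these counts do not show a change particular to the members. Without sham array 3, 10 members were higher and 4 lower (Tnfaip3, Il12a, Il1rl2 and Ccl25), with the 6 above among them, and without lymphedema array 1 or 2 or normal array 1 or 2 no member passed. Without lymphedema array 3 only Ccl6 remained, and without normal array 3 Ccl6, Cxcl16 and Il10rb. Without sham array 1, Cxcl12 was added as higher and Il1rl2 and Il9r as lower. Of Ccl2, Ccl12 and Cxcl5, none passed without normal array 1, 2 or 3 or lymphedema array 1 or 2. Within the 4 arrays set apart by missing values, lymphedema array 1 exceeded the normal mean by 1.07 (Ccl19) to 1.56 (Il10rb) for these 6 genes, and within the other 5 arrays the mean of lymphedema arrays 2 and 3 differed from the sham mean by −0.003 (Il10rb) to 0.61 (Cxcl16). With that division as a block no member passed (adjusted p = 0.17 to 0.369 for the 6 genes), and the lymphedema side of that estimate is 1 array.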

How the data were processed

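Total RNA of distal tail skin, in 3 pools for each of 3 states, was hybridized to cDNA arrays of 2 colors against whole-embryo RNA. Per the methods, the authors extracted features with GenePix and applied background subtraction and dye normalization in Expressionist. The deposited values were read as log2 ratios, 1 per feature and array, with 1.34% to 12.6% missing per array. Neither the log base nor the centering by the authors is stated. Depth does not apply to arrays, whose number limits the precision, and intensities of the channels were not analysed here. Arrays were grouped by their labels.

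The sign was turned to tail skin over reference, and each array was centered on its median. Clones with a value on all 9 arrays were averaged per gene. Limma 3.58.1 in R 4.3.3 (lmFit, eBayes) was fitted with group as the only term over all 9 arrays, and p was adjusted by Benjamini-Hochberg over all genes at 0.05. Members without a complete clone were fitted on features with at least 2 of 3 values per state, each clone's own level removed before averaging. Ccl7, Il1b, Ccr3 and Il31 were fitted on the 6 lymphedema and normal arrays, with at least 2 of 3 values in both states. Missing values were imputed with scikit-learn 1.9.0 (k = 10) under Python 3.11.15, and matplotlib 3.10.9 drew the figures.

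The members and lists were chosen with earlier results of these data known. Named genes are every member past the threshold, Cxcl12 and Pf4, the 3 members of each role with the largest absolute difference between lymphedema and normal skin, and members with missing values past the threshold. Other members named were chosen after their values were seen, as were the marker and pathway genes named. In simulated data for lymphedema against normal skin on 8644 genes, 77.4% of genes changed by 1 on the log2 scale were recovered, 100% at 2 and 100% at 3, with 8 false calls. How far these shares hold for the deposited arrays, with sham array 3 and the division by missing values among them, was not tested. Alternatives were imputation, quantile normalization, uncentered values, scaling by the median absolute deviation, arrays of the compared states only, SAM (written anew), 1 clone per gene, the replicate number and the division by missing values as blocks, and each array left out in turn. The fit on 6 arrays and the alternatives for members with missing values were chosen after seeing the data.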

Additional observations from a re-analysis of the deposited data

Results flagged for a closer look

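Ccl20 moved in opposite directions on the operated arrays: each lymphedema array lay below the mean of normal skin and each sham array above it, with differences of −0.41 for lymphedema and 0.53 for sham. The contrast between these effects is that of lymphedema against sham, −0.94, which did not pass (adjusted p = 0.276 from limma), and the opposite direction against normal skin was not itself tested.

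Among the 11 features that name a member together with another gene, which entered no comparison, 2 lay above all normal values on every lymphedema array. Some of the 11 features lacked values on some arrays. Of all genes tested, 23.6% lay above all normal arrays on every lymphedema array. The share of 2 in 11 features was therefore no higher than this background. The feature of Gm1987 and Ccl21a, the latter a ligand of Ccr7, cannot tell these 2 genes apart. It read 0.94 and 1.07 on normal arrays 2 and 3, 2.39, 2.11 and 2.00 in lymphedema and 1.43, 2.04 and 1.85 in sham skin. The difference of 1.16 between lymphedema and normal skin was not tested. The feature of Gm2002 and Il11ra2 read −0.28, −0.56 and −0.30 in normal, 0.14, 0.03 and 0.25 in lymphedema and 0.24, −0.88 and 0.10 in sham skin, a difference of 0.52 that was not tested. Groups of 3 arrays were too small to look for single outlying arrays.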

How the results depend on the processing

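The number of members higher in lymphedema than normal skin was 6. It was 3 with no centering, 2 with quantile normalization, 2 with 1 clone per gene, 0 with the division by missing values as a block, 10 with imputation on features with 2 of 3 values per state, a wider set of 85 members that gave 8 without imputation, 11 with the 2 compared states only and 18 by SAM, and it ran from 0 to 10 when 1 array was left out. The number lower was 0, and it was 5 with the 2 states only, 5 by SAM and 0 to 4 when 1 array was left out. For most of these alternatives the share of all genes called is not given, so the counts do not show a change particular to the members. All 6 calls remained without any 1 of the sham arrays, with the 2 states only and by SAM. In sham against normal skin no member passed under any alternative, and in lymphedema against sham 0 to 1 passed when 1 array was left out. Of members with missing values 3 passed, 5 with imputation, 7 with the 2 states only, 8 with at least 2 of 3 values in the 2 compared states only (Ccl2, Ccl7, Ccl12, Cxcl1, Cxcl5, Il1b, Il1f6 and Csf3r), 0 with the division as a block, and 0 to 7 when 1 array was left out. The median of the ligands in lymphedema against normal skin, 0.15, became 0.021 with quantile normalization and 0.021 with 1 clone per gene. Against sham skin the ligand median of −0.01 became −0.052 with no centering, 0.082 with scaling by the median absolute deviation and −0.11 with 1 clone per gene, and ran from −0.029 to 0.084 when 1 array was left out. That of the receptors, −0.13, ran from −0.177 to −0.008.

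Replicate numbers did not pair the samples, since deviations of same-numbered arrays correlated at −0.244 to 0.279. With the replicate number as a block 5 members were higher, 4 of them among the 6. Of 678 values for single named genes 554 kept direction and side of the threshold. The sign turned for Csf1 (0.14) and Tnfaip6 (−0.11) with 1 clone per gene, Csf1r (0.00) and Tnf (−0.005) with the division as a block, Csf1r without normal replicate 2 (0.11, with a range of −0.259 to 0.11 over arrays left out), and Cxcr3 with no centering (−0.005), scaling (−0.071), quantile normalization (−0.23) and without normal replicate 1 (−0.13) or lymphedema replicate 3 (−0.17, with a range of −0.17 to 0.269). The cause was not tested.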
